A study of Mus musculus with 8 samples.

Results

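Replicates 1 and 2 of both genotypes were compared with replicates 3 and 4 of both genotypes, in liver of newborn mice. The members were chosen by the replicate number that ends each array's title: 2 wild-type and 2 knockout arrays form the first set, and 2 wild-type and 2 knockout arrays form the second set. All 8 arrays of the study enter, 4 against 4, so every liver belongs to 1 of the sets. The study itself compared pups with a targeted disruption of the glycerol kinase gene with age-matched wild-type littermates. All pups are labelled as male, inbred C57BL/6J and taken on day of life 3, and RNA of each liver was isolated individually and hybridised to its own Affymetrix Mouse 430 2.0 array. The labels name no litter, dissection day, labelling round or scan for any array, so what else the replicate numbers mark is not known. Litter, maturity and processing cannot be told apart here, and their part in each difference below was not tested.

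The liver of a newborn mouse holds several programmes side by side. Hepatocytes secrete plasma proteins and take over glucose, fatty acid, amino acid and bile acid metabolism after birth, while red cell and granulocyte precursors that filled the fetal liver are leaving for the bone marrow. The share of dividing blood precursors and the metabolic state of hepatocytes can therefore differ between litters of the same age. In bulk liver RNA, fewer cells of a type and less RNA per cell cannot be told apart.

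The arrays also read the laboratory steps. Each probe set is a group of short probes for 1 stretch of a transcript, mostly near its 3' end, because labelling starts at the poly(A) tail. Control probe sets (named AFFX) read bacterial biotin-labelled RNAs added just before hybridisation, bacterial poly(A) RNAs that can be added to the sample before labelling, and the 3', middle and 5' stretches of a few mouse transcripts. The ratio of 3' to 5' signal rises when RNA is degraded or labelling stops early.

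All values are linear signal intensities, and every array has the same 2% trimmed mean, 500. Between 42.7% and 46.8% of probe sets reached a signal of 200 on an array. Alb, the albumin gene of hepatocytes, had a signal of at least 19537 on every array. One array goes against its label of male: on wild type 4, Xist read 10506 and Eif2s3y, a Y-linked gene, read 1.3. Elsewhere Xist did not pass 396 and Eif2s3y did not fall under 685. Wild type 4 lies in the second set, so the counts of calls are given with and without it. In a principal component analysis, knockout 1 lay farthest out on the first component (39.9% of the variance) at 69.8. Wild type 3 was at -34.9 and knockout 2 at 31.4, with the other 5 arrays between -24.4 and -2.23. Wild type 1 led the second component (22.3%) at 57.8, with knockout 3 at the other end at -24.2. Since the annotation names no probe set for glycerol kinase, its level is not analysed here.

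Control probe sets parted the sets in several directions at once, and they are given as a description because this split was known from them. Values are listed here and below in the order wild type 1, wild type 2, knockout 1 and knockout 2 for the first set, then wild type 3, wild type 4, knockout 3 and knockout 4 for the second. A BioB 3' probe set of the hybridisation spike read 167, 141, 152 and 153 in the first set against 324, 258, 311 and 338 in the second. Its log2 difference of 0.93 was the largest among the spikes. The other BioB probe sets differed by -0.10 to 0.44 and overlapped between the sets. Over the 18 probe sets of hybridisation spikes the median log2 difference, second minus first set, was 0.26, and 5 of them were higher on every second-set array than on any first-set array. The bacterial poly(A) controls ran the other way: their median difference was -0.58 over 27 probe sets, 10 of them without overlap. Over the 20395 other probe sets tested below, 7.03% were higher in the second set without overlap and 4.82% were lower. For the dap 3' probe set the first set read 3833, 2655, 4522 and 2646 and the second 1948, 1735, 2163 and 2083. Wild type 1 or knockout 1 was the highest array for most of these bacterial controls.

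Control probe sets for mouse transcripts were mostly brighter in the second set. Their median log2 difference was 0.71 over 16 probe sets, and 8 did not overlap, all of them higher, against 7.03% of the tested probe sets. The 3 probe sets of 18S ribosomal RNA, which has no poly(A) tail, were all among them, and so were the 3 of actin. For the transferrin receptor the 3'/5' ratio read 6.50, 6.53, 6.55 and 6.72 in the first set and 4.79, 4.83, 4.28 and 4.21 in the second. That of pyruvate carboxylase was 3.46, 2.63, 7.03 and 4.93 in the first set and 2.33, 2.12, 2.07 and 2.06 in the second. Both ratios were lower on every second-set array. The 5' probe set of pyruvate carboxylase read 1127, 1603, 626 and 854 against 1634, 2494, 2245 and 2035, while the 3' probe set had means of 4181 ± 207 (SD, n = 4) and 4489 ± 635 (SD, n = 4). The ratios of actin, Gapdh and 18S ribosomal RNA overlapped between the sets, with actin highest on knockout 1 at 1.74.

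**Figure D1:**
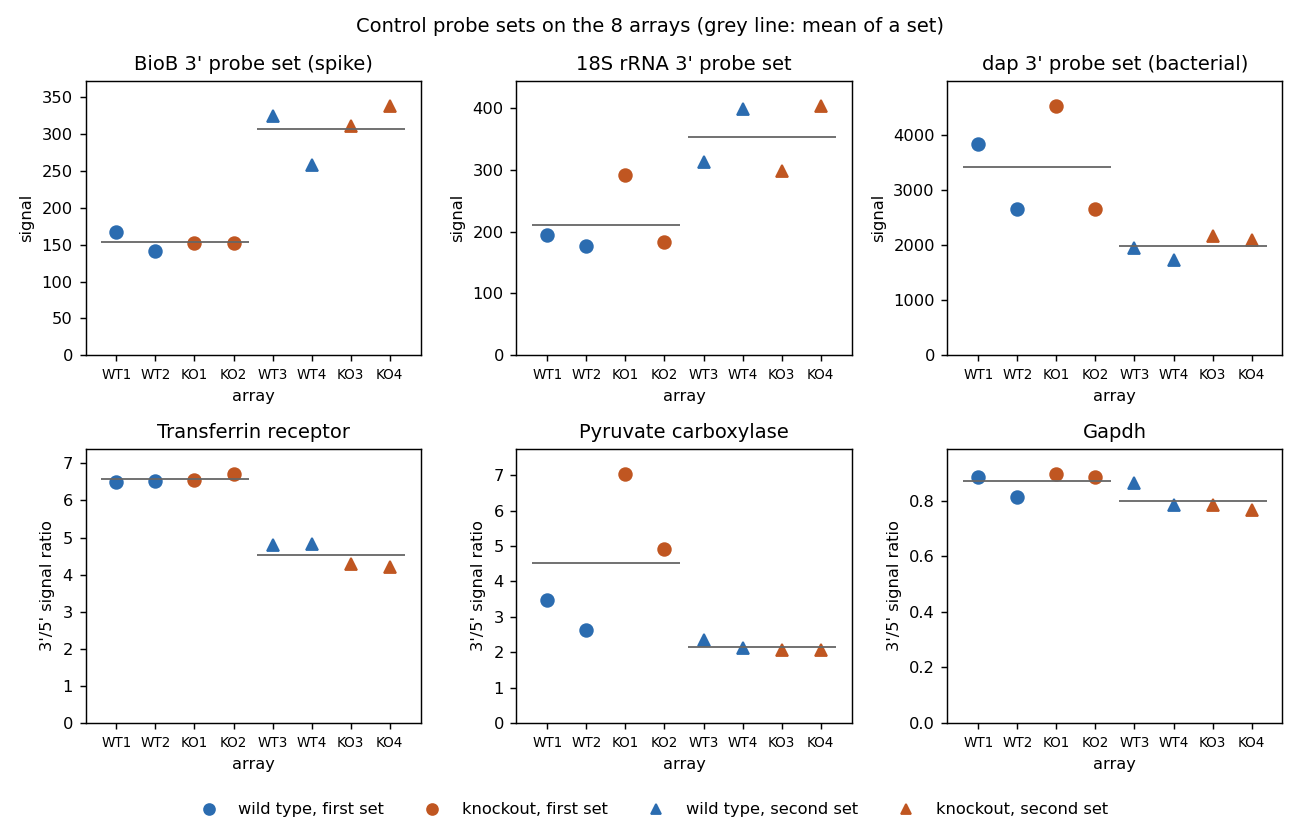
Signal of 3 control probe sets (top) and 3'/5' signal ratio of 3 mouse transcripts (bottom) on each of the 8 arrays, with circles for the first set, triangles for the second and a grey line at each set's mean. The BioB probe set shown, the spike probe set with the largest difference, and 18S ribosomal RNA lie higher on every second-set array. The bacterial dap control lies lower there, as do the ratios of the transferrin receptor and pyruvate carboxylase, and the Gapdh ratio overlaps.

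With genotype as a block, 503 of 20395 tested probe sets (2.47%) differed between the sets at a Benjamini-Hochberg adjusted p under 0.05 in limma. Of these, 369 (1.81% of those tested) were higher in the second set and 134 (0.657%) were lower, so 73.4% of the calls were rises. After centring each array on its median the split was 63.0% rises. The sets did not overlap at 1434 probe sets that were higher (7.03%) and at 983 that were lower (4.82%), whether called or not. All 503 differed in the same direction in both genotypes. The fit has 1 set difference for both genotypes, so opposite differences cancel in it and a call largely requires this agreement. The share over all tested probe sets was not computed. A called rise had a median of 0.97 on the log2 scale and a called fall one of -0.89, and 175 rises and 55 falls reached 2-fold. The median difference over all 10878 tested genes, each by its brightest probe set, was -0.00, and the median standard error of a probe set's difference was 0.17.

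Leaving out a single array moved most of these counts by more than 1.5-fold. Without wild type 4, 143 probe sets were higher and 52 lower, and 182 of the 503 were called. Without knockout 1 the counts were 211 and 57, and with both left out they were 43 and 9. Leaving out wild type 3 gave 94 and 25, knockout 2 gave 152 and 33, knockout 3 gave 73 and 32, and knockout 4 gave 86 and 27. Without wild type 1 there were 287 rises and 83 falls, and without wild type 2 there were 560 and 180. Of the 49 called probe sets of listed genes described below, 19 were called without wild type 4 and 28 without knockout 1. Without wild type 3, knockout 3 or knockout 4 there were 12, 15 and 11, without wild type 1, wild type 2 or knockout 2 there were 26, 37 and 21, and without both wild type 4 and knockout 1 there were 9. Called in all 8 fits that leave out 1 array were the probe sets of Fos, Neat1, U2af1, Sesn2, Rps10 and Fn1. So were the 3 of Malat1, 1 of Rbm39 and 1 of Srrm2. Of these, the Sesn2 and Rbm39 probe sets passed the signal minimum for testing only through the second set, where they are high. Both had to differ, so their calls in these fits are given as a description. Taking the 3'/5' ratio of pyruvate carboxylase or of Gapdh as a covariate left 0 calls each in limma, with 1449 and 1422 probe sets at an unadjusted p under 0.05, against 4272 without a covariate. With the actin ratio as the covariate, 109 were higher and 28 lower. The pyruvate carboxylase ratio itself separates the sets, so this fit takes away what moves with either.

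The probe sets that differed were dimmer than most. Their median signal over the 8 arrays was 411 for rises and 364 for falls, against 610 for all tested. Of the rises, 83 passed the minimum of 200 only because every second-set array did, and 38 of the falls only through the first set; over all tested probe sets, 173 and 99 passed in these ways. Probe sets without a gene name made up 26.0% of the rises, 13.4% of the falls and 9.40% of all tested. Those with the suffix _x_at, which mark probes shared with other sequences, made up 18.7% of the falls, 3.79% of the rises and 7.01% of all tested.

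Different probe sets of 1 gene often did not move together. Of 377 called probe sets that stand for a single gene, 295 had at least 1 other tested probe set of that gene. Among these, the 226 rises had a median of 0.94, while the median of the same genes' other probe sets was 0.22. The 69 falls had a median of -0.78, against -0.12 for the others. Called probe sets were chosen for their difference, at least 0.54 for rises and 0.51 in size for falls. A smaller difference in the others is therefore partly set by that choice, and the same comparison for uncalled probe sets was not made. The others' median had the same sign for 177 of the 226 rises (78.3%) and for 43 of the 69 falls (62.3%). Another probe set of the gene was called in the same direction for 49 rises and 4 falls, and in the opposite direction for 3 rises and 2 falls. The called probe set was the gene's brightest in 39 of the 226 and 22 of the 69.

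The named rises and falls below were required not to overlap between the sets, so that each array of 1 set lies beyond all arrays of the other. Ube2b, Paip1, Sesn2, Rsrc2, 4933439C10Rik, Ddx23 and Sp110 passed the signal minimum only through the second set, where they are high, so they had to differ, and their p-values are given as a description. Pclaf, whose protein binds the replication clamp PCNA, read 87.7, 69.0, 285 and 33.8 in the first set and 1021, 1132, 612 and 767 in the second. Its difference was 3.03 ± 0.47 (SE; adjusted p = 0.0137), while its other probe set differed by 0.45 without passing the test. Dtl, a substrate receptor of a ubiquitin ligase that acts in S phase, read 189, 223, 61.3 and 95.0 against 1021, 564, 500 and 661. Its difference was 2.24 ± 0.26 (SE; adjusted p = 0.00409), and its 4 other probe sets lay between 0.42 and 1.31, none of them called. Both transcripts belong to dividing cells, and in both the other probe sets of the gene differed by less.

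Ube2b, which encodes a ubiquitin-conjugating enzyme, had a probe set at 27.1, 19.8, 19.9 and 13.5 in the first set and at 257, 240, 273 and 244 in the second. This signal was near the floor of the table in the first set and alike over all second-set arrays. The log2 difference was 2.91 ± 0.30 (SE), yet the gene's 3 other tested probe sets differed by -0.36, -0.26 and 0.60. Paip1, a translation factor that binds the poly(A)-binding protein, rose on 2 probe sets, by 2.63 and 2.48, and another differed by -0.25. Nudt21, a subunit of the complex that chooses poly(A) sites, rose on 2 probe sets, by 2.22 and 1.60, and 2 more differed by 0.04 and -0.38. In these 3 genes some probe sets set the arrays apart and others did not. Which part of a transcript each probe set reads, and whether other transcripts bind to it, was not analysed here.

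Sesn2, sestrin 2, a stress-induced brake on mTORC1, read 31.6, 29.9, 73.0 and 64 in the first set and 312, 311, 358 and 329 in the second. Its rise was 2.45 ± 0.24 (SE; adjusted p = 0.00269), and its other probe set differed by 0.65 without a call. Prmt1, the main arginine methyltransferase of the cell, read 650, 496, 227 and 257 against 1977, 1929, 1709 and 1962. Its single tested probe set rose by 2.30 ± 0.22 (SE; adjusted p = 0.00269). Within the first set the knockout arrays were the lower ones for Prmt1 and the higher ones for Sesn2, while in the second set all 4 arrays were close. Other large rises were H2-Q5 of the major histocompatibility complex at 2.20, Rsrc2 at 2.07, 4933439C10Rik at 2.04, the spliceosomal helicase gene Ddx23 at 2.02, Gm6958 at 1.93 and the nuclear body gene Sp110 at 1.85. H2-Q5 belongs to a family of near-identical genes, so its signal may be shared with its relatives.

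Slc4a1, the anion exchanger of the red cell membrane, was the erythroid gene among the largest rises. The called probe set read 930, 1073, 199 and 609 in the first set and 2330, 2024, 2177 and 3843 in the second. It rose by 2.05 ± 0.43 (SE; adjusted p = 0.0393), by 1.11 in wild type and by 2.99 in knockout. The gene's brighter probe sets differed by 0.24 and 0.39 and were not called. The brightest read 15843, 15392, 16424 and 13432 against 18845, 17465, 17437 and 18443. The unnamed probe sets with the smallest p rose by 1.56 and 2.91. The former read 210, 226, 230 and 211 in the first set and 601, 739, 684 and 700 in the second. The latter read 62.1, 90.2, 31.1 and 46 against 474, 500, 538 and 537. It passed the signal minimum only through the second set, so it had to differ, and its rank by p is a description.

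**Figure D2:**
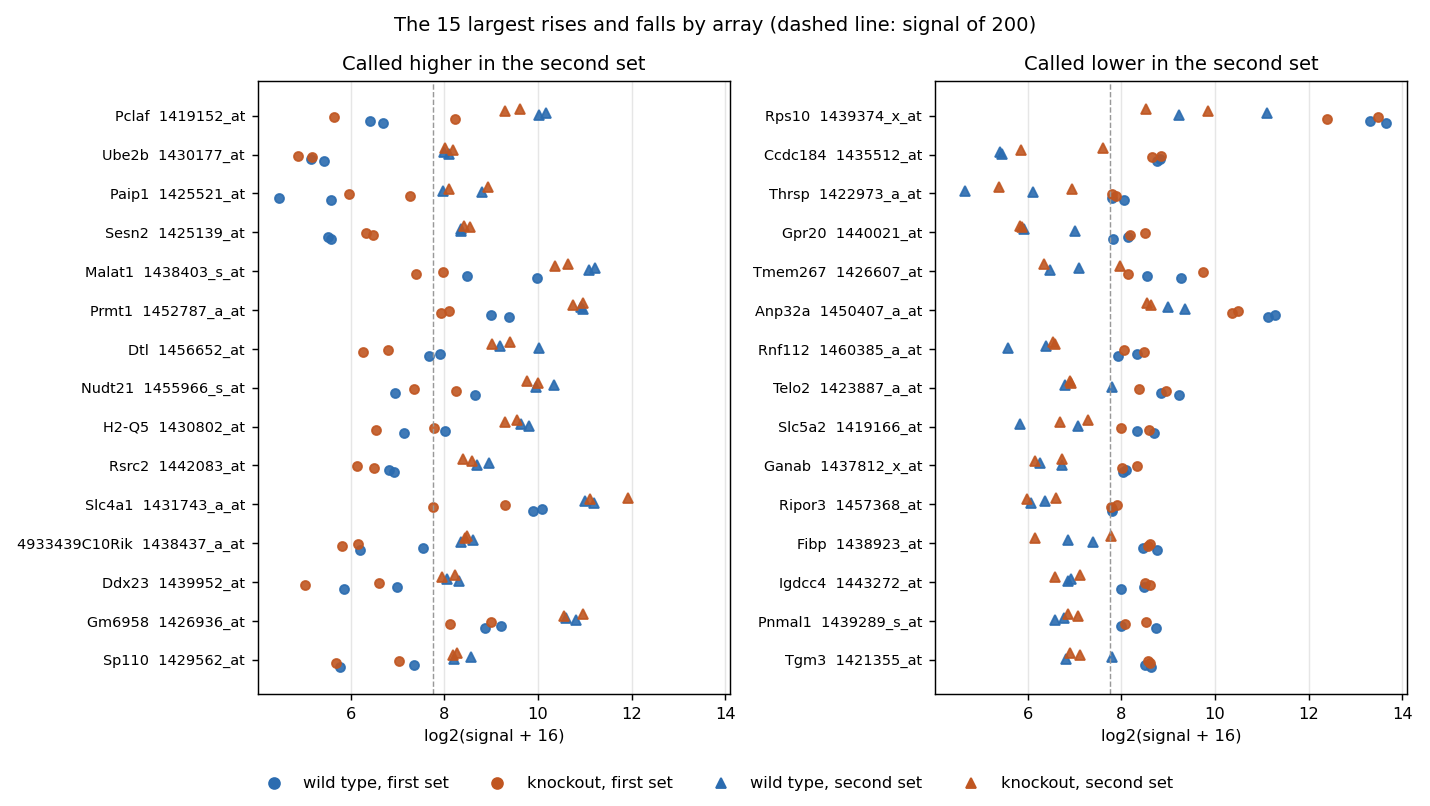
Log2(signal + 16) of the 15 largest called rises (left) and falls (right), 1 row per gene with its probe set and 1 point per array, circles for the first set and triangles for the second, blue for wild type and orange for knockout. The sets do not overlap in any row, as the choice required, and many rows cross the dashed line at a signal of 200.

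Rps10, a protein of the small ribosomal subunit, had the largest fall. One probe set read 12826, 10171, 5393 and 11427 in the first set and 587, 2195, 908 and 352 in the second, a difference of -3.53 ± 0.43 (SE; adjusted p = 0.00561). Its 4 other tested probe sets lay between -0.17 and 0.01, and none was called. Anp32a, an acidic nuclear phosphoprotein, had the smallest p of all probe sets: it read 2225, 2488, 1306 and 1430 in the first set and 640, 497, 382 and 359 in the second. The fall was 1.94 on the log2 scale (difference -1.94 ± 0.13 SE; adjusted p = 0.00101), while its other probe sets differed by -0.27 and -0.12. Ganab, the catalytic subunit of glucosidase II, fell on 1 probe set by 1.65 (difference -1.65) with the other at 0.02. Slc5a2, the renal sodium-glucose cotransporter, fell on 1 (-1.68) with the other at 0.27. Fibp fell on 1 probe set (-1.55), with 3 others at -1.22, 0.01 and 0.02.

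Thrsp, the lipogenic regulator Spot 14, read 248, 207, 219 and 206 in the first set and 53.7, 9.3, 107 and 25.7 in the second, on the only probe set tested. Its difference was -2.10 ± 0.45 (SE; adjusted p = 0.0426). It passed the minimum only through the first set, and the same holds for Slc5a2 and Ganab above and for Ccdc184 (-2.69), Gpr20 (-2.0), Rnf112 (-1.93), Ripor3 (-1.57), Igdcc4 (-1.53) and Pnmal1 (-1.51). These probe sets had to differ, so their calls and the p-value of Thrsp are given as a description. The other falls were Tmem267 (-1.95), Telo2 (-1.75), which encodes a chaperone partner of large kinases, and the transglutaminase gene Tgm3 (-1.42). Without wild type 4, 23 of the 30 named genes were called, and Paip1, Slc4a1, Ddx23, Sp110, Thrsp, Tmem267 and Fibp were not. Without both wild type 4 and knockout 1, 11 of the 30 were called. The direction was the same for all 30, which the choice of genes without overlap fixed in advance. These counts of calls include the genes that passed the minimum through 1 set only.

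**Figure D3:**
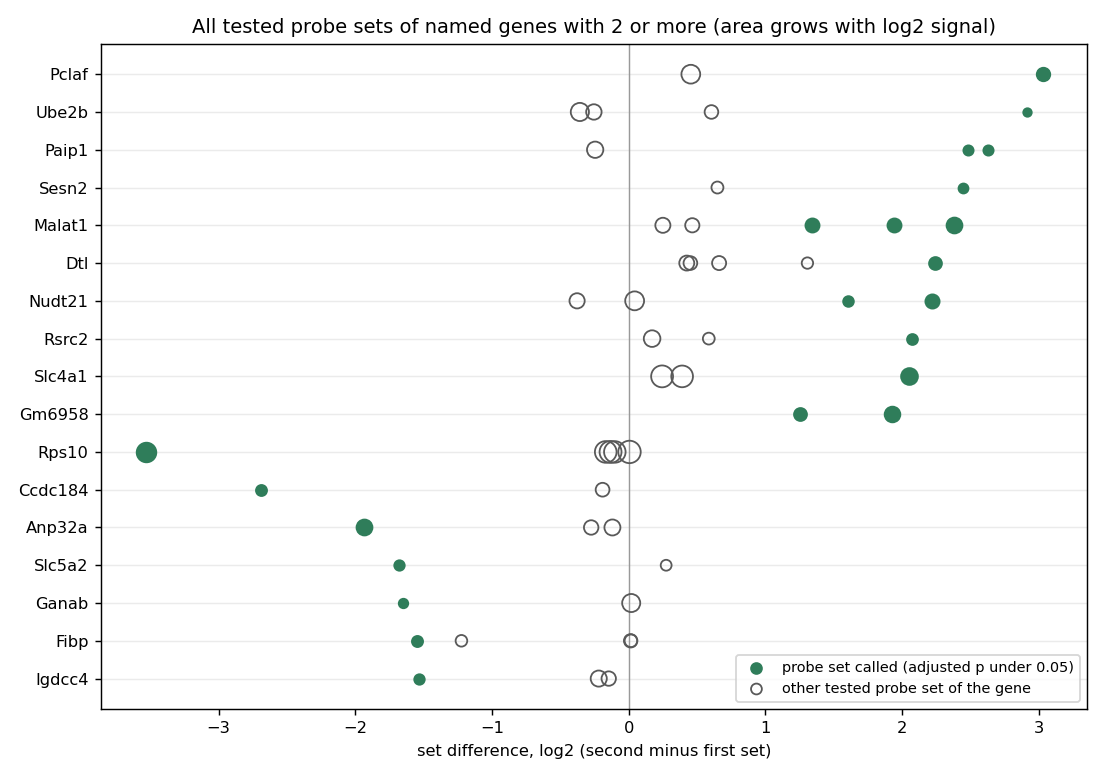
Log2 set difference (second minus first) of every tested probe set of the named genes with 2 or more, filled where called and open otherwise, with area growing with the log2 signal. Malat1 has 3 called probe sets, while for Rps10, Ube2b and Ganab a single called probe set lies far from the others of its gene.

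Transcripts that stay in the nucleus, and the genes of splicing, were the group with the most calls. Malat1, an abundant noncoding RNA of nuclear speckles, rose on 3 of 5 probe sets. The brightest read 993, 339, 151 and 233 in the first set and 2170, 2356, 1304 and 1585 in the second, a rise of 2.38 ± 0.32 (SE; adjusted p = 0.00866). The others called rose by 1.94 and 1.34, and 2 more differed by 0.46 and 0.25. Neat1, which builds paraspeckles, read 1126, 1351, 688 and 902 against 2528, 2535, 1462 and 2028. It rose by 1.07, and its other probe set differed by -0.07.

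Kcnq1ot1, an imprinted antisense RNA, rose on 2 probe sets by 0.68 and 0.79. Meg3, an imprinted noncoding RNA, rose on 1 of its 9 probe sets by 1.70, with the others between -0.25 and 1.03. Over the list of nuclear noncoding RNAs, 7 of 40 probe sets were called higher and 0 lower, against 1.81% and 0.657% of all tested. Without wild type 4, 5 of the 7 were called, and without wild type 3, knockout 3 or knockout 4, 4 were. Of its 14 genes, 7 lay above 0 by their brightest probe set and the median was 0.08, so the list as a whole was split.

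Splicing factors were more uniform. Of 40 genes, 37 lay above 0 by their brightest probe set with a median of 0.34 (0.27 in wild type, 0.49 in knockout), while 49.7% of all genes lay above 0. Called by their brightest probe set were 3 genes, against 0.726% of all genes: U2af1 at 1.35, Snrnp70 at 1.14 and Srsf2 at 0.89. With any probe set counted, 8 of 40 genes had a called rise and 0 a called fall, against 2.2% and 1.0% of all genes. The 40 genes have 147 tested probe sets, and all 10878 genes have 17945. More probe sets per gene raise a share of this kind, so the comparison is not like for like. At 14 of the 40 the sets did not overlap with the second higher, and at 1, Snrpb (-0.09, not called), with the second lower. Over all genes these shares were 4.38% and 4.68%.

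U2af1, the small subunit of the factor that reads the 3' splice site, had 1268, 1485, 926 and 1214 in the first set and 3191, 3216, 2995 and 2996 in the second. Srsf2, a speckle protein that binds exonic enhancers, read 4886, 7112, 4302 and 4863 against 10176, 8470, 10094 and 10017. Snrnp70, of the U1 particle, read 836, 1216, 555 and 795 against 2187, 1744, 1661 and 1768. Knockout 1 was the lowest array for each of the 3 genes, and the second-set arrays lay close together.

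Further splicing genes rose on probe sets that were not their brightest. Rbm39, a splicing coactivator, rose on 5 of 11 probe sets, by 0.68 to 1.69. One of them read 423, 855, 440 and 600 against 1446, 1559, 1294 and 1122. Yet 2 other Rbm39 probe sets differed by -0.47 and -0.39, and its brightest differed by 0.31. Srrm2 rose by 1.15 and 0.78, Pnisr by 1.18 and 1.96, Rbm25 by 1.22 and 0.98, and Srsf3 by 0.92. The probe sets of Rbm39 at 1.69, Pnisr at 1.96 and Rbm25 at 1.22 passed the signal minimum only through the second set. These probe sets therefore had to differ. In all, 15 of the 147 probe sets of splicing genes were called, all higher, against 1.81% of all tested, and 128 lay above 0. These calls rest on few arrays: 5 of the 15 were called without wild type 4, 4 without knockout 3, and 3 each without wild type 3, without knockout 4 and without both wild type 4 and knockout 1. Without wild type 1 or knockout 2, 9 were called, without knockout 1, 11, and without wild type 2, 13. The mouse control transcripts were brighter and the pyruvate carboxylase ratio lower in the same second-set arrays. With that ratio as a covariate the list's median was 0.09, and with the actin ratio 0.22.

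**Figure D4:**
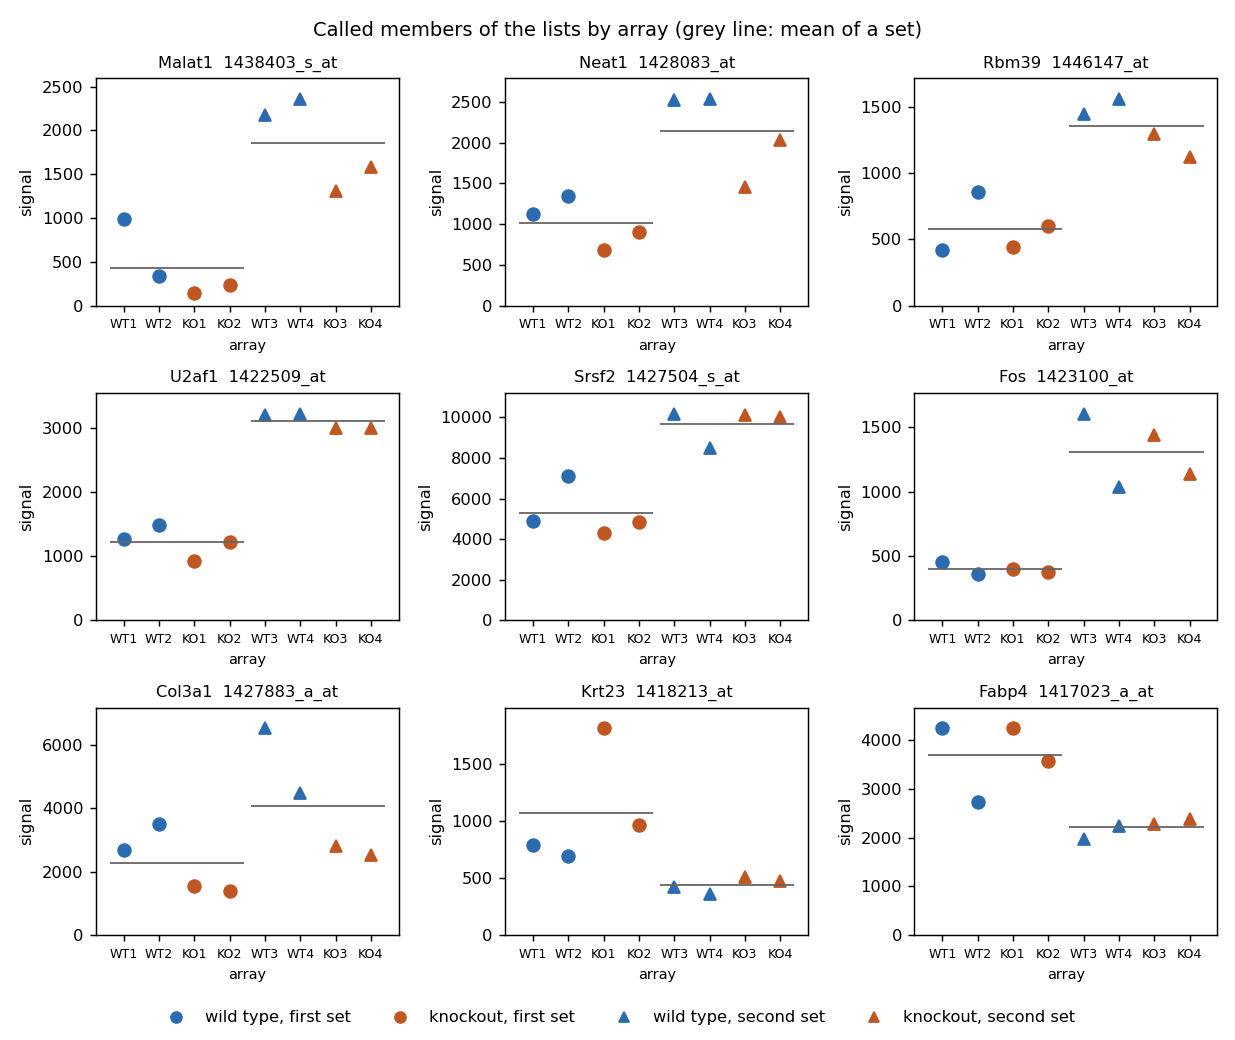
Signal on each of the 8 arrays for 9 called members of the lists, with circles for the first set, triangles for the second and a grey line at each set's mean. Malat1, Neat1, Rbm39, U2af1, Srsf2 and Fos lie higher and Krt23 and Fabp4 lower on every second-set array, while Col3a1 overlaps between the sets, with wild type above knockout in both.

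Among response genes, 1 or 2 members of a list passed the test. Fos, an immediate early transcription factor, read 450, 363, 401 and 378 in the first set and 1607, 1038, 1439 and 1140 in the second. It rose by 1.66 ± 0.16 (SE; adjusted p = 0.00269), by 1.64 in wild type and by 1.68 in knockout. Klf6 rose on 1 probe set (adjusted p = 0.0468 in limma), from 40.1, 48.9, 159 and 203 to 294, 284, 276 and 314. Jun, the usual partner of Fos, differed by 0.73 and was not called, with 1.48 in wild type and -0.02 in knockout. Of the 22 tested immediate early genes, 12 lay above 0 and the median was 0.26. In wild type 20 of the 22 lay above 0 with a median of 0.37, and in knockout 10 with a median of -0.08. By their brightest probe set 1 of the 22 was called, against 0.726% of all genes, and the call of Klf6 was lost in each fit that leaves out 1 array.

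Vegfa, the hypoxia-inducible growth factor of vessels, rose by 0.79, from 778, 1073, 881 and 1001 to 1338, 1485, 1923 and 1778. It was the only called gene of 19 in the hypoxia list (0.726% of all genes), whose median was -0.02, and it was called in 1 of the 8 fits that leave out 1 array, the one without wild type 2. Mdm2, the p53 target that degrades p53, rose by 0.71, from 642, 863, 913 and 914 to 1308, 1220, 1470 and 1455. Mdm2 was called in 2 of the 8 fits that leave out 1 array. Sesn2 was the other p53 target with a called probe set, which was not its brightest and passed the signal minimum only through the second set. By their brightest probe set 1 of the 15 tested p53 targets was called, against 0.726% of all genes. With any probe set counted 2 were, against 2.2%, and the list's median was -0.13. Txnrd1 of the NRF2 list (0.69), Socs2 of the IGF list (1.05) and H2-D1 of the interferon list (0.83) each rose on 1 probe set that was not the gene's brightest, and each was called in 1 of the 8 fits that leave out 1 array. For H2-D1, close relatives may share its signal.

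Genes of the matrix rose on a few probe sets. Col3a1, a fibrillar collagen, read 2678, 3497, 1549 and 1403 in the first set and 6534, 4488, 2813 and 2534 in the second. It rose by 0.83 ± 0.15 (SE; adjusted p = 0.0240), with 0.82 in wild type and 0.85 in knockout. Col1a1 rose by 0.80, and fibronectin, Fn1, by 1.30 on 1 probe set that read 690, 840, 1112 and 1125 against 2562, 2082, 2618 and 1998. Of the 30 collagen and matrix genes, 21 lay above 0 with a median of 0.07 (0.32 in wild type, -0.04 in knockout). Of the 14 tested stellate cell and fibroblast markers, 2 were called, the same collagens, against 0.726% of all genes. Of the 8 fits that leave out 1 array, Col1a1 was called in 1, without wild type 2, and the brighter Col3a1 probe set in 3. The summed signal of these markers ran from 19976 to 24520 in the first set and from 20972 to 31549 in the second. Whether more stromal cells move with the collagens was not tested.

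DNA replication and cell division had the highest medians of the 40 pathway lists, yet none of their probe sets was called. Of 28 replication genes, 27 lay above 0 with a median of 0.43, and of 29 division genes, 26 with a median of 0.39. The genotypes stood apart, which was not tested for the lists: the replication median was -0.05 in wild type and 0.85 in knockout, and the division median was 0.04 and 0.66. Mcm3, a subunit of the replicative helicase, read 3678, 4150, 925 and 1978 in the first set and 5125, 3640, 3493 and 4044 in the second, and its difference of 0.80 was not called. Plk1, a mitotic kinase, read 729, 920, 464 and 771 against 1741, 863, 1119 and 1469, with an uncalled difference of 0.83. Lig1 (0.69) and Kif23 (0.58) were likewise not called.

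The first-set knockout arrays set most of this. By array, the median deviation of replication genes from their 8-array mean was 0.35, 0.30, -1.08 and -0.30 in the first set and 0.49, 0.02, 0.07 and 0.28 in the second. Without knockout 1 the replication median was 0.20 and the division median 0.22. Without wild type 4 they were 0.59 and 0.54. With the pyruvate carboxylase ratio as a covariate they were -0.38 and -0.15.

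Erythroid genes followed the same pattern. Of 31 genes of the red cell membrane, iron supply and maturation, 26 lay above 0 with a median of 0.24, which was -0.09 in wild type and 0.56 in knockout. Ank1, the anchor of the red cell skeleton, read 1411, 2336, 831 and 1155 against 2769, 1859, 2345 and 3109, and its difference of 0.88 was not called. Zfpm1, a cofactor of GATA1, differed by 0.72 and Epor, the erythropoietin receptor, by 0.43, neither called. The heme synthesis genes had a median of 0.15 over 8 genes, with Alad at 0.65 and Ppox at 0.64, not called. The only globin tested under a single gene name, Hbb-b2, differed by -0.37, and its family members share sequence. The 9 tested erythroid markers had a median of 0.39 (-0.09 in wild type, 0.86 in knockout) and a summed signal of 41333 to 56633 in the first set and 48185 to 65195 in the second. Without knockout 1 the median of the erythroid genes was 0.16, and with the pyruvate carboxylase covariate -0.13.

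**Figure D5:**
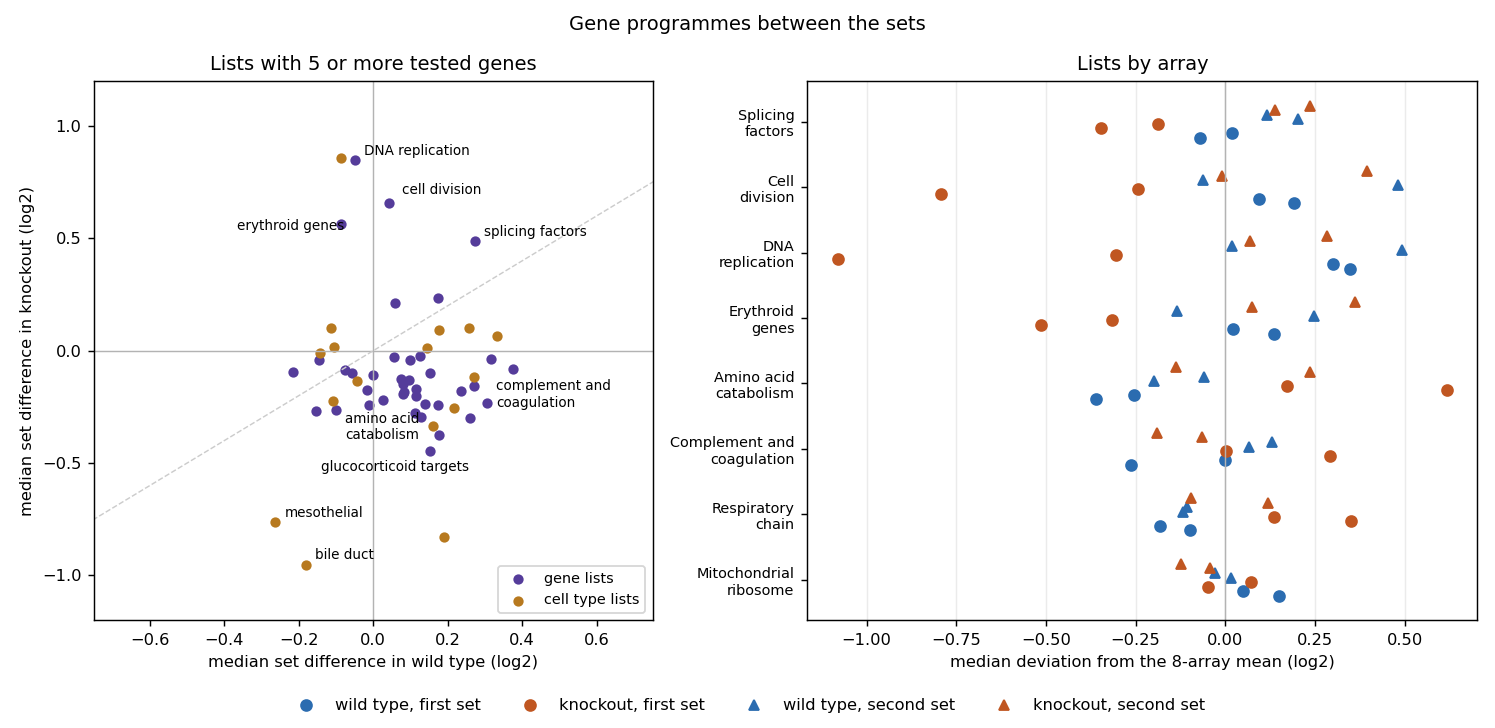
Left, median log2 set difference of each list with 5 or more tested genes, wild type on the horizontal and knockout on the vertical axis, with a dashed line where both are equal. Right, each array's median deviation from the 8-array mean for 8 lists: knockout 1 lies lowest for replication, division and erythroid genes and highest for amino acid catabolism, while splicing factors are higher on all 4 second-set arrays.

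Hepatocyte programmes differed little between the sets with both genotypes in 1 fit. The 11 hepatocyte markers had a median of 0.10 and none was called by its brightest probe set. Their summed signal ran from 179670 to 262652 in the first set and from 198373 to 225017 in the second. For most metabolic lists the wild-type median was above 0 and the knockout median below. For urea cycle and amino acid catabolism it was 0.18 and -0.38, for glucocorticoid and fasting targets 0.15 and -0.44, for gluconeogenesis 0.13 and -0.30, and for complement and coagulation 0.31 and -0.23. Knockout 1 was the highest array of the first set in each of these 4 lists. Whether the genotypes differ was tested for single probe sets only, and none of these lists had a called member by its brightest probe set.

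A few lipid genes passed the test, with Acot1, Cpt1a, Hadhb and Apob each called in at most 2 of the 8 fits that leave out 1 array. Acot1, a thioesterase induced by fasting through PPAR alpha, read 1062, 821, 5385 and 3664 in the first set and 476, 705, 2256 and 1884 in the second. It fell by 0.89 on the log2 scale (difference -0.89 ± 0.19 SE; adjusted p = 0.0446), by -0.67 in wild type and -1.10 in knockout. Knockout exceeded wild type in both sets, and the sets overlapped. Vnn1, another PPAR alpha target, differed by -0.87 and was not called. Lpin1, a phosphatidate phosphatase and coactivator, differed by -1.12 without a call, from 1768, 1200, 9718 and 5122 to 943, 1118, 3753 and 1155. Of 31 tested genes of fatty acid oxidation, 11 lay above 0 with a median of -0.08. Cpt1a, the gate of mitochondrial fatty acid import, fell on 1 probe set (-0.73), and Hadhb rose on 1 (0.81).

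Apob, the backbone of very low density lipoprotein, rose on 1 probe set by 0.87, while its brightest differed by 0.45. Gpt2, the mitochondrial alanine aminotransferase, fell by 0.66 (difference -0.66), from 1065, 1178, 1877 and 1608 to 801, 765, 1133 and 851, and was called in 1 of the 8 fits that leave out 1 array. Shmt2, of mitochondrial one-carbon metabolism, fell on 1 probe set (-1.38). Of 23 ATF4 targets, 6 lay above 0 and the median was -0.15. Cyp8b1, the sterol 12-alpha-hydroxylase of bile acid synthesis, differed by 1.12 without a call, from 3312, 5153, 628 and 1764 to 5470, 5878, 3894 and 3488.

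Lists of housekeeping machines had medians just under 0. Of 52 tested respiratory chain genes, 9 lay above 0, with a median of -0.08, and none was called. In wild type 30 lay above 0 with a median of 0.03, and in knockout 3 with a median of -0.22. Of 46 mitochondrial ribosomal protein genes, 11 lay above 0 (median -0.09), and Mrpl15 fell on 1 probe set (-0.79). Of 31 proteasome genes, 10 did (median -0.09). For cytosolic ribosomal proteins the median was -0.05, with Rps10 the only gene with a called probe set. By array, the respiratory chain was highest on knockout 1, at a median deviation of 0.35.

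Among other cell types, 1 duct marker fell. Krt23, a keratin of duct cells, read 793, 697, 1817 and 966 in the first set and 418, 359, 511 and 477 in the second. It fell by 1.15 on the log2 scale (difference -1.15 ± 0.20 SE; adjusted p = 0.0214), and was called in 4 of the 8 fits that leave out 1 array. The 5 tested bile duct markers had a median of -0.57, with 2 above 0 and Krt7, Sox9, Cftr and Cldn4 too dim to be tested. By array their median deviation was 0.26, 0.08, 0.29 and 0.22 in the first set and 0.28, -0.67, -0.35 and -0.39 in the second, so the sets overlapped. The 5 tested mesothelial markers had a median of -0.51 with 0 above 0 and none called. By array it was 0.62, -0.08, 0.68 and -0.07 against 0.04, -0.20, -0.36 and -0.40. Wild type 1 and knockout 1 were thus the high arrays, and wild type 2 and knockout 2 lay below wild type 3. Of the 3 tested markers of squamous epithelium, Krt5 differed by -1.88, Krt6a by -0.69 and Lor by 0.093, and none was called.

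Fabp4, a fatty acid carrier of adipocytes and capillaries, read 4250, 2735, 4248 and 3575 against 1964, 2245, 2277 and 2390. It fell by 0.72 (difference -0.72) and was called in 1 of the 8 fits that leave out 1 array, while Adipoq, Cidec, Ucp1 and Lep were too dim to be tested, and the 5 tested adipocyte markers had a median of 0.08. Of 14 Kupffer cell and macrophage markers, 3 lay above 0 (median -0.12), and of 11 neutrophil markers, 4 did (median -0.11). B lymphoid markers had a median of 0.11, from -0.77 on knockout 1 to 0.80 on wild type 4 by array. None of these 3 lists had a called member. Within the endothelial list the median was -0.00 and 8 of 16 genes lay above 0.

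Within a genotype the comparison rests on 2 arrays against 2. In wild type 12 probe sets (0.0588%) passed the test and in knockout 253 (1.24%), with 2255 and 4649 at an unadjusted p under 0.05. Without wild type 4 the wild-type count was 0 in limma, with 1310 at an unadjusted p under 0.05, and without knockout 4 the knockout count was 0, with 2208. The difference of the set effect between genotypes was itself tested, and 2 probe sets (0.00981%) passed, with 2023 at an unadjusted p under 0.05 (9.92%).

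Pvr, a nectin-like cell adhesion receptor, read 89.9, 85.0, 548 and 454 in the first set and 284, 259, 100 and 102 in the second. It differed by 1.47 between the sets in wild type and by -2.14 in knockout, a difference between genotypes of -3.61 ± 0.36 (SE; adjusted p = 0.0410). Gins2, a subunit of the replicative helicase, read 1113, 994, 128 and 108 against 873, 699, 668 and 931. It differed by -0.42 in wild type and by 2.59 in knockout, a difference of 3.01 ± 0.31 (SE; adjusted p = 0.0410). Both passed in the fits without knockout 2, at an adjusted p of 0.0433, and in none of those without wild type 1, wild type 2, wild type 3, wild type 4, knockout 1, knockout 3 or knockout 4 (0.0581 to 0.379).

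The next in order, Rab5c (-1.82), Grb10 (1.60) and Pdia2 (1.95), had an adjusted p of 0.484. Grb10, an imprinted brake on insulin and growth factor signalling, also rose between the sets by 1.58. It read 964, 1047, 547 and 713 in the first set and 1756, 1723, 3543 and 3110 in the second. The rise was 0.78 in wild type and 2.38 in knockout.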

How the data were processed

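Per the labels, the authors' values are signal intensities from Affymetrix GCOS 1.2 at default settings, each array being scaled to a target of 500. The deposited intensities were used on that scale. They hold no detection calls, probe-level values or scan information. Titles gave each array's genotype and set.

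Probe sets were named by Entrez identifier from the platform's annotation and a RefSeq gene table: 34945 stand for 1 gene, 932 for several and 9160 for none, and 64 are controls. Tested were the 20395 that reached 200 on 4 or more arrays. Log2(signal + 16) was fitted with genotype and set in limma 3.58.1 (R 4.3.3; lmFit, eBayes with an intensity trend), two-sided, with Benjamini-Hochberg adjustment over all tested. Differences are second minus first set on that scale, which understates low signals. The difference between genotypes came from a fit of the 4 genotype-by-set means. Arrays are separate livers, and their number limits the precision. The fits were tested on simulated data. Alternatives were pseudocounts, signal minimums, scalings, blocks, thresholds, 3'/5' ratios as covariates and each array left out.

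Named were the 15 largest rises and 15 largest falls among called single-gene probe sets without overlap (the brightest such per gene), list members by smallest p (up to 4 called, otherwise up to 2), the 5 genes with the smallest p for the genotype difference and 2 unnamed probe sets; called probe sets of listed genes that were not the brightest, and uncalled ones of named genes, were added after their values were seen. A gene is represented in its list by its brightest tested probe set. The sets, the 40 gene lists and 23 cell type lists were chosen with earlier results of these data known, among them that control probe sets part the arrays this way.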

Additional observations from a re-analysis of the deposited data

Results flagged for a closer look

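Of 200 groups of 4 arrays, 15 held an array whose gap to its neighbour exceeded the 95% limit of Dixon's ratio, which chance passes in about 1 of 20 groups. Among 3'/5' ratios these were actin on knockout 1 (1.74), Gapdh on wild type 2 (0.811) and 18S ribosomal RNA on knockout 3 (1.99). Among list deviations in the first set they were granule products on wild type 2 (0.34), fetal liver genes on knockout 1 (0.19) and interferon-induced genes on knockout 1 (-0.26). In the second set they were the respiratory chain on knockout 3 (0.12), gut epithelium on knockout 4 (-0.54) and sex-linked genes on wild type 4 (-2.62). Among signals in the second set they were Slc4a1 on knockout 4 (3843), Sp110 on wild type 4 (366), Ccdc184 on knockout 4 (180), Gpr20 on wild type 3 (114) and Telo2 on wild type 3 (208), and in the first set 4933439C10Rik on wild type 2 (170).

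The set effect differed between the genotypes for Pvr (-3.61) and Gins2 (3.01) by a test of that difference. In 8 lists the arrays of 1 genotype moved opposite to those of the other, and the difference was not tested. The knockout minus wild-type difference of the median was -0.27 for hepatocyte transcription factors, -0.23 for the circadian clock, -0.60 for glucocorticoid and fasting targets, -0.46 for immediate early genes, -0.56 for interferon-induced genes, -0.54 for complement and coagulation, -0.27 for the citric acid cycle and -0.094 for eosinophil, basophil and mast cell markers.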

How the results depend on the processing

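A signal minimum of 100 gave 642 rises and 297 falls, one of 400 gave 166 and 37, no filter gave 787 and 436, and 200 on all 8 arrays (chosen after seeing the data, as was leaving out 2 arrays) gave 162 and 44. A fit with no genotype block gave 236 and 75, an adjusted p under 0.01 gave 64 and 11, and one under 0.10 gave 833 and 428. The actin ratio as a covariate gave 109 and 28 and a splicing median of 0.22. The pyruvate carboxylase ratio gave 0 and 0, with medians of -0.13 for erythroid, -0.15 for division, -0.38 for replication and 0.094 for splicing genes, and the Gapdh ratio gave 0 and 0; the cause was not tested. Leaving out both wild type 4 and knockout 1 gave 43 and 9. Single arrays left out gave 73 to 560 rises and 25 to 180 falls, medians of 0.14 to 0.38 for erythroid, 0.22 to 0.54 for division, 0.20 to 0.59 for replication and 0.27 to 0.41 for splicing genes, 0 to 287 calls in wild type, 0 to 1516 in knockout and 0 to 22 for the genotype difference. A lone array left in a genotype's set is assumed to vary like the others. Quantile normalization gave 81 calls in knockout and 0 for the genotype difference, and a minimum of 400 gave 4 in wild type and 0 for the difference.

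Same-numbered arrays deviated from their genotype means with a correlation of 0.22, 0.40, 0.34 and 0.05, which includes the set difference. Other-numbered arrays of the same set had 0.07 and 0.08 in the first set and 0.37 and 0.21 in the second. With each genotype's set mean taken away, same-numbered arrays had 0.19 in the first set and -0.16 in the second. The numbers thus share no proven pairing. The replicate block (number as a random block, correlation -0.09) gave 540 rises and 235 falls. With the pyruvate carboxylase covariate these uncalled differences changed sign: Ank1 -0.13, Zfpm1 -0.10, Ppox -0.26, Alad -0.40, Lig1 -0.19, Mcm3 -0.40, Cyp8b1 -0.38, Epor -0.20, Pax5 -0.22, Lpin1 0.11, Rora 0.011, Pdp1 0.20 and Hnf4a 0.037. Of the other comparisons of single genes with their alternatives, 3414 kept direction and side of the threshold, 673 lost the call and 36 gained one. Low signals limit the precision, since 83 rises and 38 falls passed the minimum through 1 set only.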
